A study of Homo sapiens with 6 samples.

Results

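Fc receptors bind the constant part of antibodies and link them to the cells that carry them. The 9 genes described here were FCGR1A, FCGR2A, FCGR2B and FCGR3A for receptors of immunoglobulin G, FCER1A and FCER2 for receptors of immunoglobulin E, FCAR for the receptor of immunoglobulin A, FCER1G for the common signalling chain, and FCGRT for the neonatal receptor. They were found as all probe sets whose platform annotation held one of these symbols, alone or beside others, which gave 33 of 49293 probe sets. Of these, 30 were annotated to 1 gene and 3 were shared with the paralogs FCGR2C or FCGR3B. All 9 genes had a probe set of their own, so they entered the gene comparison as 9 of 18239 genes.

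The cells were MV4;11, a human leukemia line with a rearranged MLL gene. MI-389, an inhibitor of the binding of menin to MLL, was given at 4 µM for 6 days to 3 cultures, and DMSO alone was given for the same time to 3 others. Both groups held 0.25% DMSO, and medium and compound or solvent were renewed on day 3. Total RNA was labelled from the 3-prime end and read on 6 Affymetrix arrays, whose values were deposited on the log2 scale. The labels name biological replicates but not how far the cultures were kept apart. The p-values therefore rest on a spread that could be partly technical. The number of arrays limits the precision.

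On myeloid cells, most receptors for immunoglobulin G signal through tyrosine motifs, which are phosphorylated by SRC family kinases and then bind the kinase SYK. FCGR1A and FCER1A have no such motif of their own and use the chain encoded by FCER1G, whereas FCGR2A carries one in its tail and FCGR2B carries an inhibitory motif that recruits phosphatases. FCER2 (CD23) stands apart as a C-type lectin, and FCGRT resembles the heavy chains of MHC class I and carries immunoglobulin G and albumin back from endosomes.

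Both directions of change occurred among these genes. FCER2 fell at least 8.89-fold with MI-389 and FCGR1A fell 2.41-fold, while FCGRT rose 6.88-fold and FCGR2A rose 1.76-fold. These sizes are those of each gene's brightest probe set. With the mean of all probe sets FCGRT differed by 1.31 instead of 2.78 on the log2 scale and FCGR1A by -0.75 instead of -1.27. FCER1G, the chain that FCGR1A needs, differed by 0.06 on the log2 scale (95% interval -0.07 to 0.20). FCGR2B and FCER1A passed the test with small rises at dim levels, and FCGR3A and FCAR did not pass it. In counts, 6 of 9 genes were called at a limma adjusted p under 0.05, against 34.1% of all genes. Of these, 4 were higher, against 18.4% of all genes, and 2 were lower, against 15.7%. The groups of 3 arrays did not overlap for 6 of the 9 genes, against 45.3% of all genes. Of the 33 probe sets, 14 were higher and 5 lower, against 14.0% of all probe sets in each direction and 28.0% in either. The groups did not overlap for 20 of them, against 40.4% of all probe sets. The median difference over the 9 genes was 0.06, and 0.02 over all genes.

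The windows around the annotated starts of the 4 genes with a change above background are shown because FCGR1A and FCGR2A, both activating receptors for immunoglobulin G, moved in opposite directions, and because FCER2 has 2 annotated starts. Each window holds 250 bases before to 50 bases after the start, from RefSeq on GRCh38.p14, in the direction of the gene. FCGR1A lies at chr1:149782444-149782743 on the plus strand and FCGR2A at chr1:161505207-161505506 on the plus strand. FCER2 has windows at chr19:7702082-7702381 and chr19:7699392-7699691 on the minus strand, and FCGRT lies at chr19:49512411-49512710 on the plus strand. Capitals mark 4 motifs searched on both strands: GAGGAA (core of the PU.1 site), TTCNNNGAA (gamma-activated site), TTC and GAA with 4 bases between them (STAT6 type), and TGGGAA (core of the RBPJ site).
FCGR1A: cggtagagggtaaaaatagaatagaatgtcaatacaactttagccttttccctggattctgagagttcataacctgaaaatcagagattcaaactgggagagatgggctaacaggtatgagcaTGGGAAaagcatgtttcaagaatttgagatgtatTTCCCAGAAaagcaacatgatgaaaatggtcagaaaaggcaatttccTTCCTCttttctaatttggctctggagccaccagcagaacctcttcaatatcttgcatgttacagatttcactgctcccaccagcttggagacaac
FCGR2A: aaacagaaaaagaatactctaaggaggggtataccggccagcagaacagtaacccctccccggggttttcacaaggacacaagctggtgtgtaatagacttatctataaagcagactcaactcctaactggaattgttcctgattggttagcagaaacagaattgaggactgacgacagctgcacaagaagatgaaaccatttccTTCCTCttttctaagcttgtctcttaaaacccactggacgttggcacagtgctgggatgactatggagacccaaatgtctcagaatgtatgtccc
FCER2, first start: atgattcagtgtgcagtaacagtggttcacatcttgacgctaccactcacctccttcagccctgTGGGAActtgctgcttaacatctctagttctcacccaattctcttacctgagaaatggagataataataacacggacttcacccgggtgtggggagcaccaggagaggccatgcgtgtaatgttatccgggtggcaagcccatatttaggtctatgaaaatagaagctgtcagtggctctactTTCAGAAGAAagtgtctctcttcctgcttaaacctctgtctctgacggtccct
FCER2, second start: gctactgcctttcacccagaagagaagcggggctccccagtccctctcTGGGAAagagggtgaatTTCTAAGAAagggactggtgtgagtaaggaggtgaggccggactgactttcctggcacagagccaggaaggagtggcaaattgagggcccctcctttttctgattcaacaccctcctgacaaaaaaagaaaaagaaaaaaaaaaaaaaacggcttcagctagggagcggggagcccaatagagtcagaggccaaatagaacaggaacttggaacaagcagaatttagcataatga
FCGRT: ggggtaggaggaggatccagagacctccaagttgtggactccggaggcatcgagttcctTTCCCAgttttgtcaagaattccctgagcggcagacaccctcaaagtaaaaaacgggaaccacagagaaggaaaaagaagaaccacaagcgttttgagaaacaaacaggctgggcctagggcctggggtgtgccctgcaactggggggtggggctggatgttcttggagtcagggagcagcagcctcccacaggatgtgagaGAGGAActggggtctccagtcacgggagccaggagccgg

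In the FCGR1A window, the gamma-activated match TTCCCAGAA began at position -93 from the start and overlapped a reverse match to the RBPJ core. The FCER2 window of the first start held a STAT6 type match, TTCAGAAGAA, that began at -3, and that of the second start held a gamma-activated match, TTCTAAGAA, at -185. FCGRT and FCGR2A had neither kind. FCGR2B, called higher at dim levels and not shown above, had gamma-activated matches at -141 and -106 in a window. Of all 35116 windows of 300 bases, 7.66% held the gamma-activated motif, 6.44% the STAT6 type, 27.9% the PU.1 core and 24.0% the RBPJ core. FCGR1A and FCGR2A shared a run of 20 bases, from -52 to -33 in FCGR1A and from -51 to -32 in FCGR2A, around a reverse match to the PU.1 core.
Shared run: atttccTTCCTCttttctaa
These matches describe letters and not bound sites. The table held windows for 8 of the 9 genes.

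As a guide to background, nonspecific control probe sets on the arrays were used. Their highest value on a single array was 5.49 with the set of highest GC content left out and 7.87 with it. A group below 5.49 is called dim here, and where only one group is dim the fold is given as a bound against that level. Values of different probe sets are not levels that can be set against each other. FCGR2B, FCGR3A, FCER1A and FCAR were dim in both groups. The shares of all genes given here include 9571 genes with a mean level below 5.49.

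**Figure D1:**
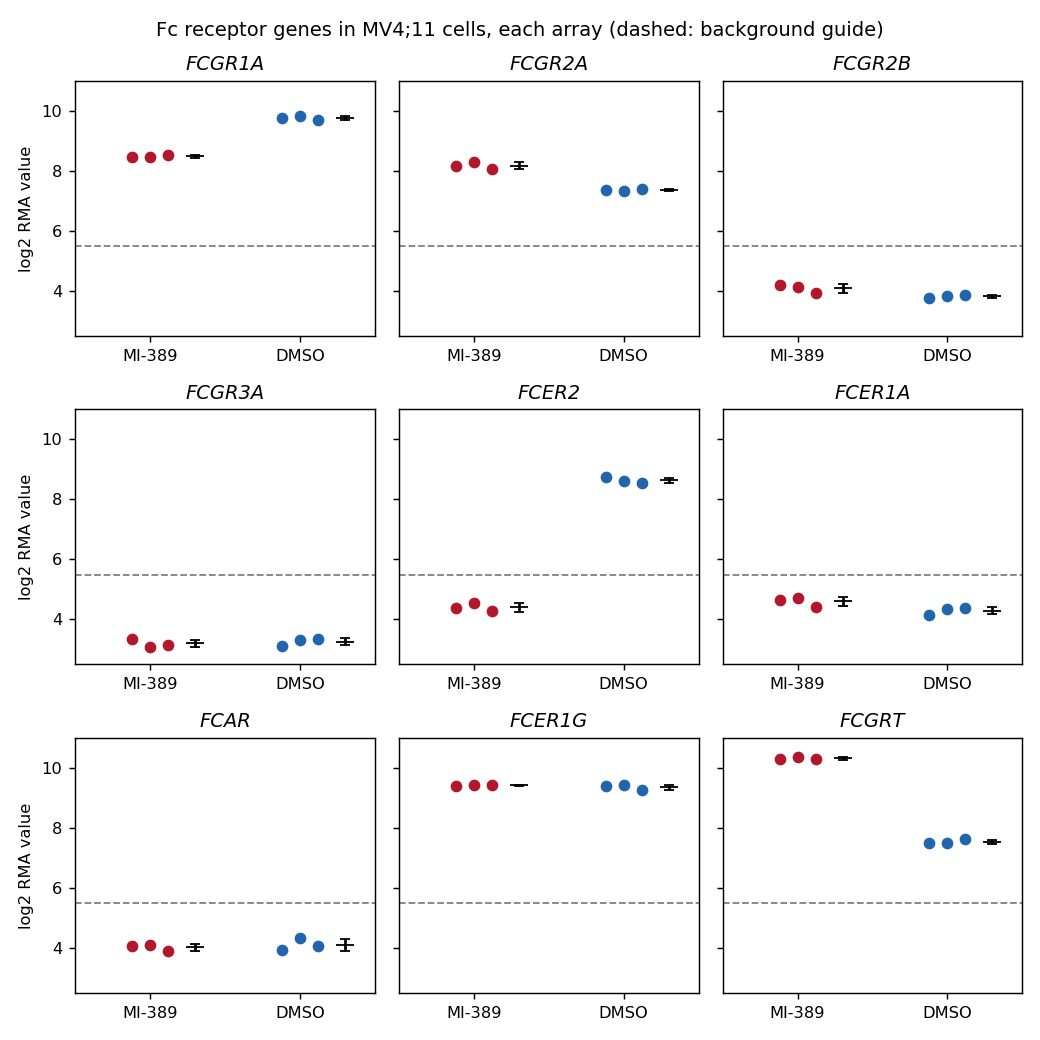
Log2 value of the representing probe set of each of the 9 genes on every array (points, MI-389 left and DMSO right), with the group mean and SD beside them and the background guide of 5.49 as a dashed line. FCER2 and FCGR1A lie lower with MI-389, FCGRT and FCGR2A lie higher, and FCGR2B, FCGR3A, FCER1A and FCAR lie under the line in both groups; heights are not comparable between genes.

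FCER2 encodes the low-affinity receptor for immunoglobulin E, known from B cells and from monocytes stimulated with interleukin 4. Its single probe set read 4.38, 4.56 and 4.27 with MI-389, against 8.74, 8.61 and 8.56 with DMSO. The 3 arrays with MI-389 thus lay at background, and the 3 with DMSO were bright. The log2 difference was -4.24 (SE 0.08, limma adjusted p = 4.89e-10), and the change was at least 8.89-fold lower against 5.49, or at least 1.71-fold against 7.87. No second probe set was there to compare with. In bulk RNA, fewer cells that carry a transcript and less of it per cell cannot be told apart.

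B cell markers were read because FCER2 and FCGR2B are also B cell genes. Of 8 listed markers 7 were measured and 6 of these were dim in both groups, MS4A1 (CD20) and the FCER2 ligand CR2 (CD21) among them. PAX5 was the marker above background, at 6.75 ± 0.02 with MI-389 and 6.66 ± 0.03 with DMSO (SD, n = 3 each), and was not called (adjusted p = 0.221 by limma). CD79A (-0.27) and BANK1 (-0.32) fell at dim levels. The mean level of the list ran from 4.41 to 4.46 with MI-389 and from 4.54 to 4.55 with DMSO, and its part in the fall of FCER2 was not tested.

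FCGR1A encodes CD64, the high-affinity receptor for immunoglobulin G of monocytes and macrophages. Its brightest probe set read 8.48, 8.46 and 8.55 with MI-389, against 9.77, 9.82 and 9.69 with DMSO. Both groups were above both background guides, 5.49 and 7.87, and the groups did not overlap. The log2 difference was -1.27 (SE 0.06, 95% interval -1.40 to -1.13, limma adjusted p = 1.12e-07).

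The other 3 probe sets of FCGR1A were dim in both groups and were also called lower. The brighter of them averaged 4.18 ± 0.12 with MI-389 and 5.20 ± 0.19 with DMSO, a difference of -1.02. The remaining pair differed by -0.36 and -0.35. Taking the mean of all 4 probe sets gave -0.75 for the gene. Taking probe sets whose names carry the suffix x, s or a last gave -0.35, and both were still called lower.

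FCGR1BP, a pseudogene copy of FCGR1A with nearly the same sequence, had 1 probe set. It read 4.29, 4.32 and 4.48 with MI-389, against 6.12, 6.17 and 5.86 with DMSO, at least 1.48-fold lower (limma adjusted p = 2.5e-07). Reads of the copies by each other's probes cannot be told apart here, so the fall belongs to the FCGR1 genes as a group.

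FCGR2A encodes CD32A, a low-affinity receptor for immunoglobulin G with its own activating motif. Its brightest probe set read 8.17, 8.29 and 8.08 with MI-389, against 7.36, 7.34 and 7.40 with DMSO. Every array with MI-389 was higher than every array with DMSO, and the difference was 0.82 (SE 0.07, 95% interval 0.67 to 0.96, limma adjusted p = 5.43e-06). All 6 probe sets that carry its symbol were called higher, by 0.50 to 0.88 on the log2 scale. The largest and the smallest of these differences came from the 2 probe sets shared with FCGR2C, which cannot tell the pair apart.

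FCGR2B encodes the inhibitory member of the CD32 group. Its representing probe set read 4.21, 4.14 and 3.92 with MI-389, against 3.76, 3.82 and 3.87 with DMSO. These levels are dim in both groups and nearly touch. The difference was 0.27 (SE 0.08, limma adjusted p = 0.0211), and 2 of its 4 probe sets were called higher, with differences from 0.14 to 0.37 over all 4. The call was lost without DMSO replicate 1 (adjusted p = 0.0795), DMSO replicate 2 (0.0609), MI-389 replicate 1 (0.0754) or MI-389 replicate 2 (0.0677).

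FCGR3A encodes CD16A, known from natural killer cells and a subset of monocytes. It read 3.34, 3.10 and 3.16 with MI-389, against 3.13, 3.30 and 3.36 with DMSO. The groups overlapped at dim levels, with a difference of -0.07 (95% interval -0.25 to 0.12, limma adjusted p = 0.617). The probe set shared with FCGR3B differed by -0.05. Of 8 markers of natural killer and T cells, 6 were dim in both groups, while NKG7 (0.94) rose and NCAM1 (-0.67) fell above background. CD3D (0.32) was called higher at dim levels. Of 8 genes listed as markers of a myelomonocytic line 7 were measured and 5 were above background in both groups, among them LYZ, at 13.1 ± 0.04 with MI-389 and 11.1 ± 0.01 with DMSO. ANPEP and SPI1 were dim. Of the 7, limma called 3 higher and 1, SPI1, lower, against 18.4% and 15.7% of all genes. LYZ had the largest rise of the list, while CD4 (-0.06) and FUT4 (-0.10), both above background, were not called.

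**Figure D2:**
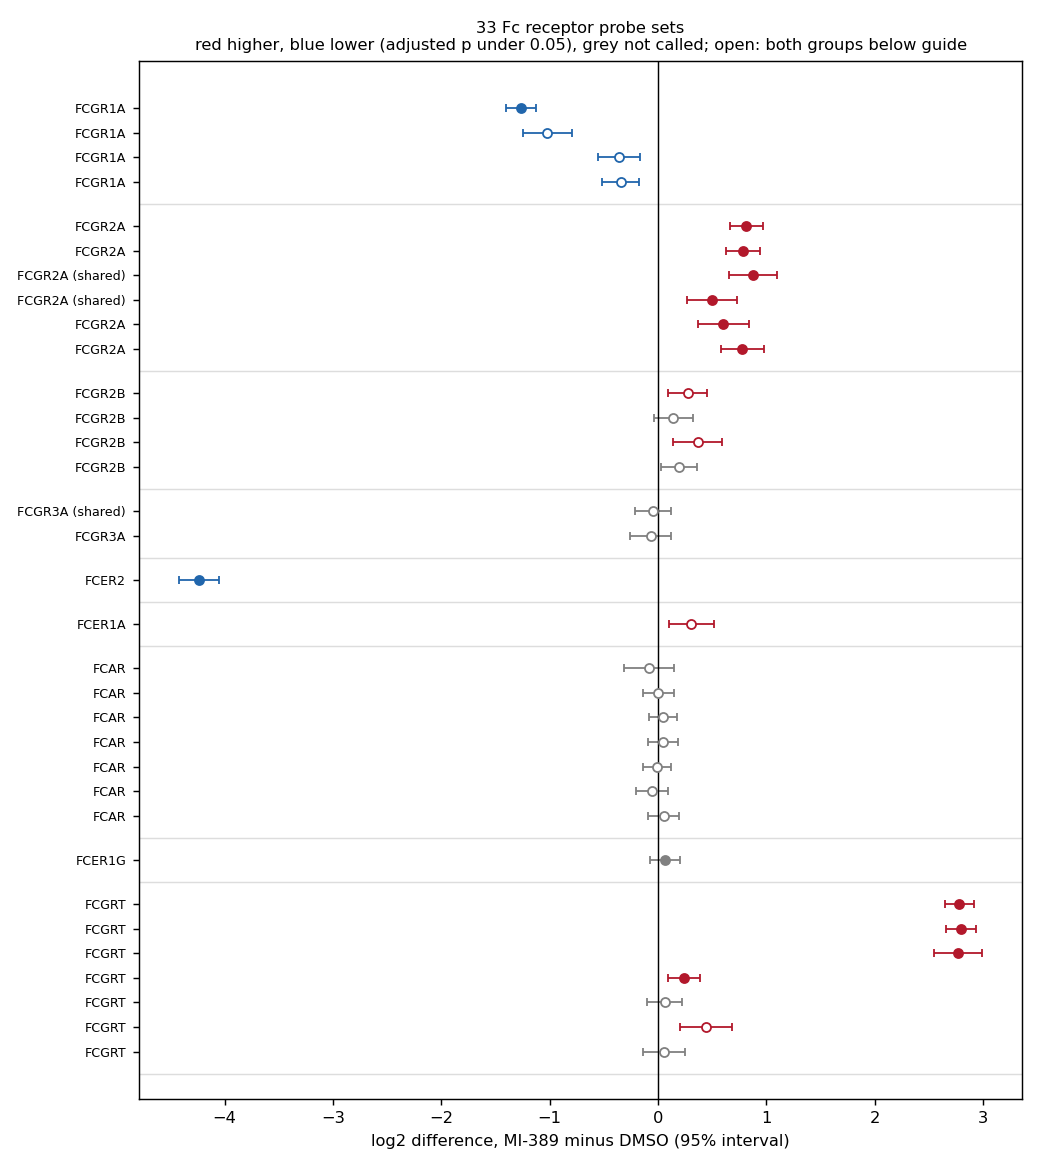
Log2 difference, MI-389 minus DMSO, with its 95% interval for each of the 33 probe sets, by gene (red called higher, blue called lower, grey not called, open where both groups are below the background guide). All 4 FCGR1A probe sets lie left of 0 and all 6 of FCGR2A right of it, while the 7 of FCGRT split into 3 near 2.8 and 4 below 0.5.

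FCER1A encodes the chain of the high-affinity receptor for immunoglobulin E that holds the antibody, known from mast cells and basophils. Its single probe set read 4.66, 4.73 and 4.42 with MI-389, against 4.15, 4.36 and 4.37 with DMSO. The values are dim, and the lowest array with MI-389 was just above the highest with DMSO. The difference was 0.31 (SE 0.09, limma adjusted p = 0.0241), and the call was lost without DMSO replicate 1 (adjusted p = 0.0962), MI-389 replicate 1 (0.0736) or MI-389 replicate 2 (0.0882). The 4 measured mast cell and basophil markers of 6 listed were dim in both groups, and limma called none of them, also at an unadjusted p under 0.05.

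FCAR encodes CD89, the receptor of myeloid cells for immunoglobulin A. Its representing probe set read 4.06, 4.11 and 3.90 with MI-389, against 3.92, 4.33 and 4.07 with DMSO. The groups overlapped, with a difference of -0.08 (95% interval -0.31 to 0.14, limma adjusted p = 0.593). Limma called none of its 7 probe sets, also at an unadjusted p under 0.05, and their differences ran from -0.08 to 0.05, all at dim levels. The 4 measured eosinophil markers of 5 listed were dim as well and not called by limma, with 1 of them at an unadjusted p under 0.05.

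FCER1G encodes the common gamma chain, which carries the activating motif for FCGR1A, FCER1A, FCGR3A and FCAR. Its probe set read 9.41, 9.45 and 9.43 with MI-389, against 9.39, 9.43 and 9.27 with DMSO. It was bright on all 6 arrays, and the groups overlapped. The difference was 0.06 (95% interval -0.07 to 0.20, limma adjusted p = 0.489). Centring the arrays on the spike-in controls lowers every gene by 0.25 and turned this value to -0.19 (adjusted p = 0.0473).

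FCGRT encodes the heavy chain of the neonatal Fc receptor, FcRn. Its representing probe set read 10.28, 10.38 and 10.31 with MI-389, against 7.51, 7.49 and 7.62 with DMSO. Both groups were above 5.49 and wide apart, and the difference was 2.78 (SE 0.06, 95% interval 2.65 to 2.92, limma adjusted p = 6.53e-10). A pair of further bright probe sets gave 2.80 and 2.77.

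The other 4 probe sets of FCGRT did not show a rise of this size. They differed by 0.24, 0.06, 0.44 and 0.06 on the log2 scale, and the first and the third were called higher. Their group means ran from 3.43 to 6.66. With the mean of all 7 probe sets the gene differed by 1.31. With probe sets whose names carry the suffix x, s or a taken last, it differed by 0.44, and both were called higher. Of the bright probe sets, those at 2.78 and 2.80 carry the suffix a and that at 2.77 the suffix x. Which transcripts or regions each probe set reads was not examined, so the size of the rise rests on 3 probe sets.

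**Figure D3:**
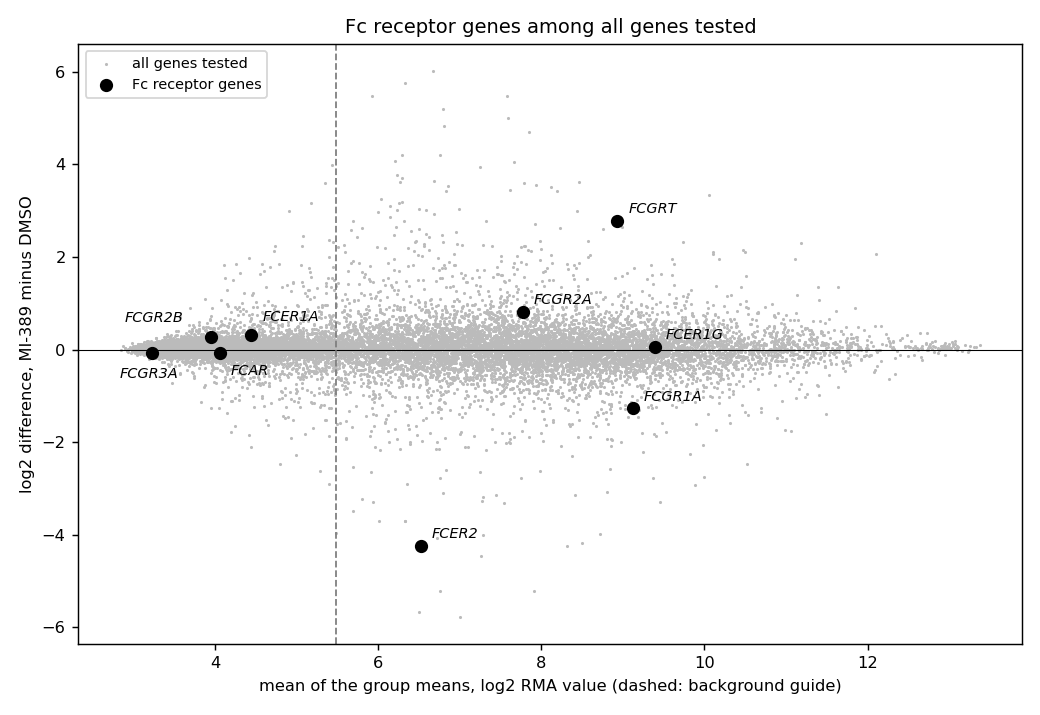
Log2 difference, MI-389 minus DMSO, against the mean of the group means for all 18239 genes (grey) and the 9 Fc receptor genes (black, named), with the background guide as a dashed line. FCER2 at -4.24 and FCGRT at 2.78 lie at the edges of the cloud, and FCER1G at 0.06 lies at its centre.

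The chains that work with these receptors were read next. TYROBP, an adaptor with an activating motif like that of FCER1G, averaged 11.6 ± 0.08 with MI-389 and 11.0 ± 0.06 with DMSO, a rise of 0.63. The related adaptor HCST rose by 0.48. B2M, the light chain of FCGRT, rose by 0.36 to 12.8 ± 0.03 with MI-389, against 12.5 ± 0.04 with DMSO, and all 8 of its probe sets were called higher. CD247, a signalling chain that can pair with FCGR3A, was dim and differed by 0.01. In all, 3 of 5 measured genes of this list of 6 were higher, against 18.4% of all genes, and none was lower by limma, also at an unadjusted p under 0.05. CR2 (-0.09) and CD247 had an adjusted p of 0.486 and 0.918.

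Other receptors of immunoglobulins were mostly at background. Of 16 listed 14 were measured, 11 of these were dim in both groups, and all 6 measured FCRL genes were among those not called. TRIM21, an antibody receptor of the cytosol, rose by 0.86 (SE 0.08, limma adjusted p = 1.88e-05), and FCGR1BP fell as given above. The median difference of the list was 0.01, and 0.02 over all genes.

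Of 15 measured kinases and phosphatases next to the receptors 6 were higher and 6 lower, against 18.4% and 15.7% of all genes. SYK, the kinase that binds the activating motifs, averaged 10.4 ± 0.02 with MI-389 and 9.64 ± 0.01 with DMSO, a rise of 0.79. The SRC family kinase FGR rose by 1.83, the ubiquitin ligase CBLB by at least 1.60-fold and the inhibitory adaptor DOK1 by 0.66. FYN, another SRC family kinase, changed by -0.96 and the kinase TEC fell at least 1.2-fold. The phosphatases PTPN6 (SHP-1, -0.69) and INPP5D (SHIP1, -0.64), which bind inhibitory motifs such as that of FCGR2B, were both lower. LYN differed by 0.12 (adjusted p = 0.104 by limma). FGR had 1 of 2 probe sets called higher, and its other one differed by 0.05, so the gene was not called when that probe set stood for it (adjusted p = 0.638). For CBLB 1 of 4 probe sets was called, for DOK1 3 of 5 and for INPP5D 2 of 4. With the name suffixes x, s and a taken last, CBLB differed by 0.28 (limma adjusted p = 0.0483).

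Adaptors and effectors further on were higher in 13 and lower in 3 of 24 measured genes of 26, against 18.4% and 15.7% of all genes, with a median of 0.18 (0.02 over all genes). Centring on the spike-ins turned these counts to 4 higher and 10 lower. Of the 24 genes 3 were dim in both groups, so the shares of all genes are an unlike yardstick here too. The adaptor FYB1, known from phagocytes and T cells, averaged 9.15 ± 0.08 with MI-389 and 6.81 ± 0.23 with DMSO, a rise of 2.34. All 5 of its probe sets were called higher, by 1.49 to 2.58. VAV3, which activates RAC proteins, rose by 0.84, the phospholipase PLD1 by 0.70 and PLA2G4A, which frees arachidonic acid, by 0.51. GAB2, an adaptor of the phosphoinositide 3-kinase, changed by -1.11, the GTPase RAC2 by -0.42 and the adaptor LAT2 by -0.41. For VAV3 3 of 6 probe sets were called, and for GAB2 1 of 2.

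**Figure D4:**
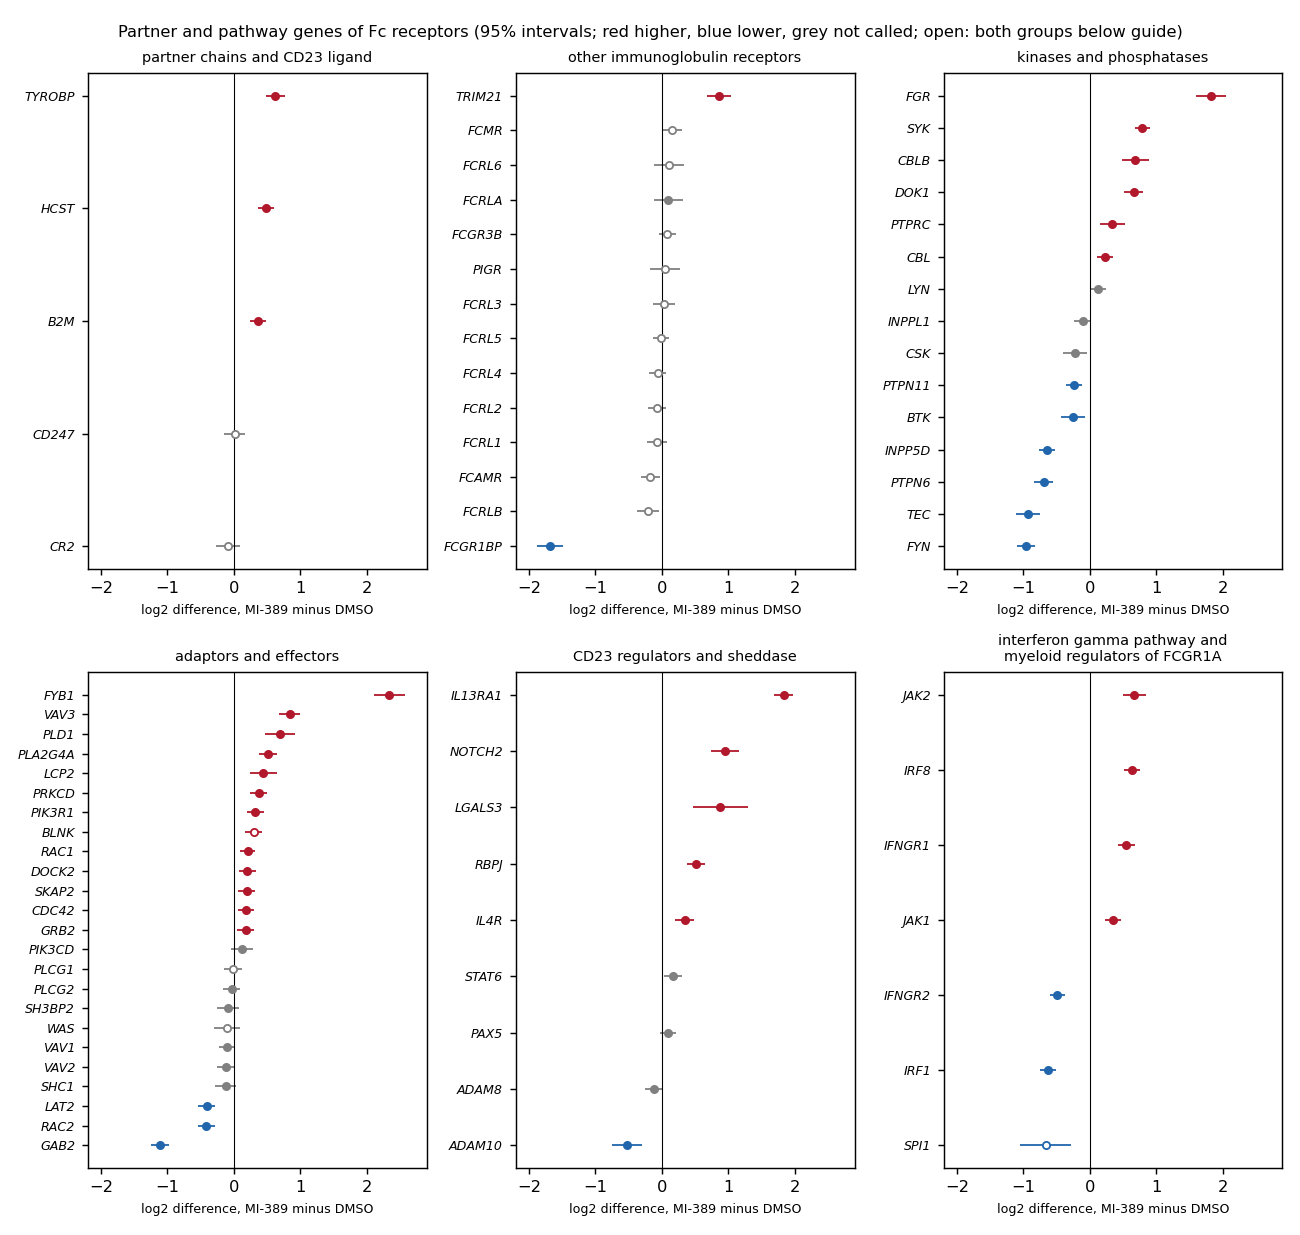
Log2 difference, MI-389 minus DMSO, with its 95% interval for the measured genes of 6 lists of partner and pathway genes (red called higher, blue called lower, grey not called, open where both groups are below the background guide). FYB1 (2.34), IL13RA1 (1.84) and FGR (1.83) lie farthest right, and GAB2 (-1.11) and FYN (-0.96) farthest left among genes above the guide in both groups. FCGR1BP is drawn at its measured difference, although its level with MI-389 lies below the guide.

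Of 9 genes tied to the control and shedding of CD23, 5 were higher and 1 was lower, against 18.4% and 15.7% of all genes. None of the 9 was dim in both groups, unlike many of all genes. IL13RA1, a chain of the receptor for interleukins 4 and 13, averaged 8.73 ± 0.08 with MI-389 and 6.89 ± 0.07 with DMSO, a rise of 1.84. All 4 of its probe sets were called higher, by 1.84 to 2.09. IL4R rose by 0.35 with 1 of 5 probe sets called, and STAT6, which acts behind both, differed by 0.17 (limma adjusted p = 0.0505, and 0.029 with the dimmest 40% of genes left out of the test). STAT6 was also called higher in alternatives that included quantile normalisation (0.0263), the mean of all probe sets (0.0348) and DMSO replicate 1 left out (0.041), and not in others. NOTCH2 and RBPJ, of the Notch pathway, rose by 0.95 and 0.51. LGALS3, galectin 3, which also binds immunoglobulin E, read 6.63, 6.02 and 6.96 with MI-389, against 5.69, 5.65 and 5.63 with DMSO, a rise of 0.88. ADAM10, the protease that sheds CD23 from the cell, changed by -0.53, and ADAM8, which can also cleave CD23, differed by -0.12 (adjusted p = 0.186). PAX5 was given with the B cell markers.

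A further list held genes of the interferon gamma pathway, which induces FCGR1A in monocytes, and the myeloid regulators IRF8 and SPI1. Of its 7 measured genes 4 were higher and 3 lower, against 18.4% and 15.7% of all genes. Only SPI1 among the 7 was dim in both groups, whereas many of all genes were dim. IFNGR1, the ligand-binding receptor chain, rose by 0.55, and IFNGR2, its partner chain, changed by -0.49. The kinases JAK2 and JAK1 rose by 0.67 and 0.34. IRF1, a transcription factor induced by the pathway, averaged 7.23 ± 0.04 with MI-389 and 7.85 ± 0.03 with DMSO, a change of -0.62, and IRF8 rose by 0.63 to 11.4 ± 0.04 with MI-389, against 10.7 ± 0.02 with DMSO. For IFNGR1 1 of 2 probe sets was called, and the other differed by -0.004. For JAK1 2 of 3 and for IRF1 3 of 4 probe sets were called. SPI1, which encodes PU.1, read 4.02, 4.01 and 3.95 with MI-389, against 5.16, 4.46 and 4.36 with DMSO. This change of -0.66 was dim in both groups and became -0.42 without DMSO replicate 1. It rests on 1 probe set. The call was lost at an adjusted p under 0.01 (limma, 0.0119) and with limma's treat against a fold of 1.2 (0.133).

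Of these 38 named partner and pathway genes, those of the partner, CD23 and interferon gamma lists were named whether called or not. Those of the other lists were named because they were called. Of the 33 that were called, 21 had every probe set called in the same direction and none had a probe set called in the opposite one. The 21 include FCGR1BP, FYN, HCST, IFNGR2, LGALS3, PLA2G4A, RAC2, SPI1 and TRIM21. These have 1 probe set each, so their agreement follows from the call and adds no support. When the probe sets of a gene were averaged, differences came out over 1.5 times smaller for FGR (0.94), CBLB (0.23), DOK1 (0.39), INPP5D (-0.28), GAB2 (-0.58), VAV3 (0.31), NOTCH2 (0.50), IL4R (0.14) and IFNGR1 (0.27), with every call kept. After centring on the spike-ins, B2M (limma adjusted p = 0.217), IL4R (0.271) and JAK1 (0.302) were no longer called.

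Likeness to the 2 genes that fell was read as the distance between centred log2 values over the 6 arrays, which mostly reflects the size of the treatment difference. The nearest to FCER2 were PRDM8, of the PRDM family of nuclear factors (distance 0.22, at least 9.62-fold lower), the branched-chain aminotransferase BCAT1 (0.30, -4.23) and the transcription factor ATF5 (0.35, -3.99). The nearest to FCGR1A were the mitochondrial protease LONP1 (0.09, -1.24), the prion protein gene PRNP (0.12, -1.26) and the pyruvate dehydrogenase kinase PDK1 (0.12, -1.31). FCER2 and PRDM8 were dim with MI-389, so their distances rest partly on values at background. PRDM8 had another probe set at 0.14 and PDK1 one at -0.12, both not called.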

How the data were processed

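Gene expression was measured on 6 arrays of MV4;11 cells, 3 with MI-389 and 3 with DMSO. The values deposited by the authors are log2 intensities, with 1 for each probe set on each array. RMA and limma are named, without versions, per the submitters' processing notes. Settings of RMA are not given in the sources. RMA compresses dim values, so folds of dim genes are understated. Array medians were 4.47 to 4.50.

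From the values as deposited, 93 control probe sets were left out. Each gene stood by its brightest probe set (highest mean over all 6 arrays) among those annotated to it alone, with platform symbols updated through gene IDs in the RefSeq table of GRCh38.p14. MI-389 was compared with DMSO in R 4.3.3 with limma 3.58.1 (lmFit and eBayes, a two-sided test without covariates). P-values were adjusted by Benjamini-Hochberg across 49293 probe sets or 18239 genes, and an adjusted p under 0.05 made a call. On simulated data for this gene comparison (18239 genes), 24% of 50 genes changed by 0.25 were recovered, 98% at 0.5 and 100% at 1 and at 2, with 11 false calls among 18039. The changed share was far smaller there than the 34.1% of genes called here. The adjusted cutoff was thus stricter, and the recovery of small changes does not carry over to these data.

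The members and lists were chosen with earlier results of these data known. Named are all members, up to 4 rising and 4 falling called genes of each pathway list, all measured genes of the partner, CD23 and interferon gamma lists, and the 3 genes nearest in pattern to FCER2 and to FCGR1A. Marker genes were named from their lists after their values were seen, and so was LYN. Alternatives are in the closing section.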

Additional observations from a re-analysis of the deposited data

Results flagged for a closer look

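The spike-in transcripts that control the hybridisation, read by 9 control probe sets outside the comparisons, differed between the groups. They averaged 9.30 ± 0.05 with MI-389 and 9.05 ± 0.05 with DMSO (SD, n = 3 each), a log2 difference of 0.25 (SE 0.04). The nonspecific control probe sets differed by 0.05 (SE 0.03).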

How the results depend on the processing

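FCER2, FCGR1A, FCGR2A and FCGRT kept their direction and their call in all 18 alternatives (other scalings, filters, variance models, probe set rules and thresholds, and each array left out), with differences of -4.49 to -4.17, -1.52 to -0.35, 0.56 to 0.87 and 0.44 to 2.82. The bound for FCER2 moved from 8.89-fold to 1.71-fold with the background guide that includes the highest GC content. Against that guide FCGRT was at least 5.49-fold and FCGR2A at least 1.24-fold higher, and FCGR1BP, TEC and CBLB, below it in both groups, had no bound. Of the 9 genes, 2 were called higher instead of 4 without the dimmest 40% of genes by mean level, under the spike-in centring, with limma's treat against a fold of 1.2 and at an adjusted p under 0.01. Leaving out 1 array gave 2 to 4 higher and 2 lower. Of the 33 probe sets, 14 were higher and 5 lower, against 9 higher at 0.01, 8 and 3 with treat, and 3 lower with the dimmest 40% of probe sets left out and not tested. Leaving out 1 array gave 10 to 13 higher and 5 lower.

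Centring the arrays on the spike-ins moved the median of all genes from 0.02 to -0.23, and the share of called genes that were higher from 53.9% to 11.2%. There, 9 probe sets were higher and 14 lower, and 2 genes were higher and 5 lower. FCER1G turned to -0.19 and CD247 to -0.24. With this centring 2 partner chains, 8 other immunoglobulin receptors and 2 CD23 regulators were lower, and the adaptors had 4 higher and 10 lower. Treat gave 4 adaptors higher and 1 lower, and 0 CD23 regulators lower (ADAM10 had an adjusted p of 0.0844). Of the other immunoglobulin receptors, 2 were lower with a common median, with quantile normalisation or with the mean of all probe sets, and 1 to 2 were higher and 1 to 2 lower with 1 array left out. The mean of all probe sets gave 5 adaptors lower. FGR was not called with the name suffixes x, s and a taken last (0.05). The cause of these changes was not tested.

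The labels do not say whether cultures with equal replicate numbers were paired. Deviations of same-numbered arrays from their group means correlated at -0.18, 0.03 and -0.11 across probe sets, which cannot exclude a pairing. The replicate block gave 4 Fc receptor genes higher and 2 lower, as without it. Dim genes are limited by background, and FCER2, FCER1A and FCER1G rest on 1 probe set each.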
